A study of Mus musculus with 22 samples.

Results

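Ccl22 was 1 of the 17023 genes to which the transcripts of the count table could be assigned, and it was represented by 1 of the 62492 transcripts in that table, ENSMUST00000034231. It was chosen for its own values across all 22 libraries: high in culture, low in most NFKBIE-wt spleens and high in 3 of 4 NFKBIE-ko spleens. Its levels are therefore given here as a description, with no p-value, and tests are given only for other genes. The libraries came from TCL1-355 TKO cells, a murine leukemia line derived from the Eμ-TCL1 mouse model of chronic lymphocytic leukemia, in which the TCL1 transgene is driven in B cells; both genotypes carry the loss-of-function lesions of the line, which include CDKN2A and CDKN2B. NFKBIE-ko cells were edited with Cas9 at Nfkbie and NFKBIE-wt cells were mock edited. Each genotype was propagated apart for 21 days, with 2 C57BL/6 donor mice in all, and then injected into the peritoneum of C57BL/6 recipients aged 2 to 3 months (5 mice per group). Spleen and peritoneal cavity (PC) were collected 10 days later, and 4 samples of each genotype and site were sequenced. The in vitro samples, 3 of each genotype, were leukemic cells from spleens of 3 mice kept in culture for 2 weeks. Cells from the mice were not purified, so the in vivo libraries can hold host RNA. In such bulk samples more cells of a type and more RNA per cell cannot be told apart, and any effect of the separate propagation cannot be told apart from genotype.

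CCL22 is a small secreted chemokine made mainly by dendritic cells and macrophages and also by activated B cells. It binds the receptor CCR4, which is carried by regulatory and other helper T cells, and so brings those cells towards the cells that secrete it; CCL17 is the other ligand of the same receptor. NFKBIE encodes IκBε, an inhibitor that holds NF-κB dimers in the cytoplasm, and chemokine genes such as Ccl22 are known to respond to NF-κB and, in many cells, to interleukin 4 through STAT6. CIITA is the master regulator of MHC class II genes.

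The sequence that defines the genotype is the site cut in Nfkbie, shown with its PAM in capitals. It lies at chr17:45869436-45869455 on the plus strand of GRCm39, within exon 2 and the coding sequence of ENSMUST00000024742.
Nfkbie guide site: agtgattcacgaagccccgtCGG
The bases just before the start of the Ccl22 transcript are shown because NF-κB-type motifs can be looked for in them. The window spans the 250 bases of chr8:95471968-95472217 (GRCm39, plus strand), upstream of the transcript start at 95472218, and overlaps no annotated exon. It lies within the annotated Ccl22 gene, which begins at 95471226, so it is not the region before the gene. Capitals mark matches, on the minus strand, to GGG and CC separated by any 5 bases, which read as their reverse complement here.
Ccl22 upstream window: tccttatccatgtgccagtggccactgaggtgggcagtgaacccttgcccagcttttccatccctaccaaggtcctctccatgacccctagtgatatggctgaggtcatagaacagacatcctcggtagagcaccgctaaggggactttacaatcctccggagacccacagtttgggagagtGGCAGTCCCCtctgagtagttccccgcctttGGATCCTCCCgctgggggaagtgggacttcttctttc
This loose form, which contains the NF-κB consensus, was found 2 times in this window when both strands were searched, and at least once in 47.8% of the 21757 windows of the same length before protein-coding genes. The stricter NF-κB consensus had 0 matches here and was present in 7.63% of all windows, and a STAT6-type motif, TTC and GAA separated by any 4 bases, had 0 matches here and was present in 5.9%. These counts describe letters in 1 window and say nothing of binding.

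The libraries were of similar depth, with 24036763 to 26581304 estimated counts each, and levels are given as TMM-scaled CPM, that is, counts scaled to library size. B-cell genes were abundant in all of them: the summed level of the 9 B-cell identity genes (such as Cd79a and Pax5) was 6605 CPM or more in every library. In the NFKBIE-wt groups 2 libraries went against their labels. The library labelled NFKBIE-wt spleen replicate 4 was closest to NFKBIE-wt in vitro replicate 1 (r = 0.961) and correlated with the NFKBIE-ko in vitro libraries at r = 0.949 to 0.958, above its correlations with the other NFKBIE-wt spleens (0.877 to 0.926), and had 0 CPM of the haemoglobin gene Hbb-bs against 72.1 to 778 CPM in those spleens. The culture library labelled NFKBIE-wt replicate 3 was closest to NFKBIE-wt spleen replicate 1 (r = 0.957), correlated at 0.890 to 0.897 with the other NFKBIE-wt cultures, and had 385 CPM of Hbb-bs against at most 0.269 CPM in the other cultures. Hbb-bs was chosen for this check after its values were seen. Whether these labels were exchanged was not tested, and every NFKBIE-wt spleen and culture value depends on them. Both libraries were kept under their labels, and the results that rest on them are given with and without them. NFKBIE-ko spleen replicate 2 also stood apart from its group and was closest to NFKBIE-wt spleen replicate 1 (r = 0.941, against 0.913 to 0.927 with the other NFKBIE-ko spleens).

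The main transcript of the targeted gene did not separate the genotypes by its level in the spleen. The main Nfkbie transcript stood at 42.7, 40.6, 49.6 and 101 CPM in NFKBIE-wt spleens and at 81.7, 31.1, 74.9 and 78.6 CPM in NFKBIE-ko spleens. The groups overlapped, and the log2 difference was 0.19 (SE 0.39, edgeR adjusted p = 0.91). Without NFKBIE-wt replicate 4 and NFKBIE-ko replicate 2 it was 0.81 (SE 0.12, adjusted p = 0.0371), with the NFKBIE-ko level the higher. Both libraries stand out by their own Nfkbie values, so this larger difference follows from leaving them out and supports nothing. In the PC the transcript stood at 39.3, 51.5, 55.0 and 71.2 CPM in NFKBIE-wt and at 32.9, 37.6, 36.0 and 32.3 CPM in NFKBIE-ko samples, and all 4 NFKBIE-ko samples were below all NFKBIE-wt samples (log2 difference -0.68, SE 0.16, adjusted p = 0.0248). In culture it stood at 92.1, 119 and 29.8 CPM in NFKBIE-wt and at 40.5, 39.4 and 29.96 CPM in NFKBIE-ko samples (log2 difference -1.15, SE 0.48, adjusted p = 0.863); without NFKBIE-wt replicate 3 the difference was -1.53 (adjusted p = 0.275). A second coding transcript, ENSMUST00000233929, was lower in NFKBIE-ko PC (log2 difference -1.77, SE 0.40, adjusted p = 0.0237), with 1.94 to 8.20 CPM against 13.6 to 18.2 CPM. The guide site is in an exon of each of the 3 Nfkbie transcripts of the table, and counts per transcript do not read the edit, so these levels do not check which libraries carry it.

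Ccl22 varied 113-fold between the lowest and the highest of the 22 libraries, and both ends of that range were spleens. In NFKBIE-wt spleens it stood at 8.38, 1.96, 6.19 and 105 CPM in replicates 1 to 4. In NFKBIE-ko spleens it stood at 221, 6.21, 171 and 206 CPM. Thus 3 NFKBIE-wt libraries and NFKBIE-ko replicate 2 were low, while NFKBIE-wt replicate 4 and the other 3 NFKBIE-ko libraries were high, and the groups overlapped. In the PC the NFKBIE-wt samples held 20.8, 18.7, 21.7 and 28.6 CPM. The NFKBIE-ko PC samples held 58.5, 26.1, 38.4 and 35.3 CPM, and 3 of the 4 were above all NFKBIE-wt samples. The values within each PC group were close together by comparison with the spleen. In culture the NFKBIE-wt samples held 85.9, 129 and 2.53 CPM and the NFKBIE-ko samples held 103, 156 and 105 CPM. Of the cultures, only the one labelled NFKBIE-wt replicate 3 was low, and it held 33.9-fold less than the lower of the other NFKBIE-wt cultures. Behind these levels were 48 estimated counts in the lowest library and 5825 in the highest.

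**Figure D1:**
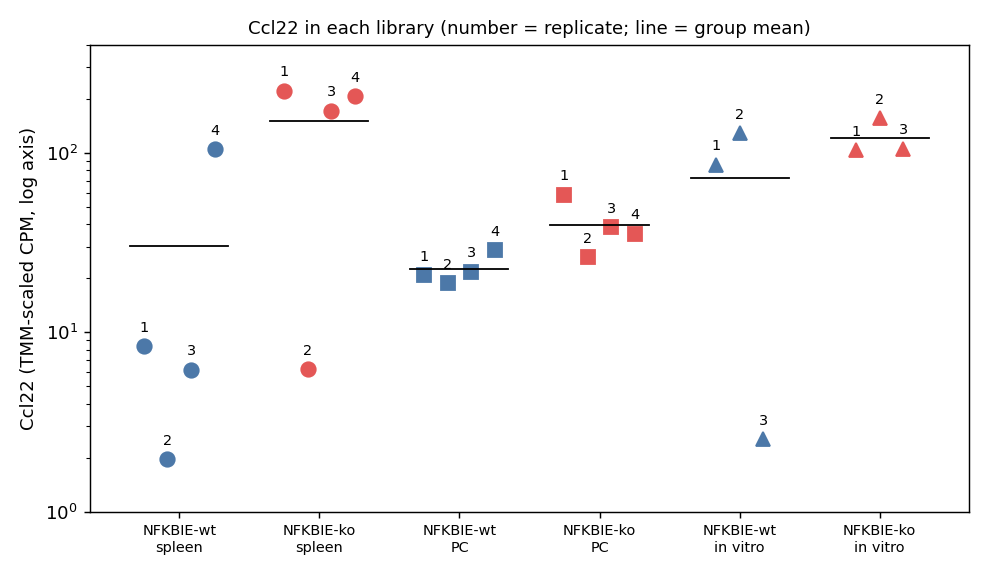
Ccl22 in TMM-scaled CPM (log axis) in each of the 22 libraries, grouped by genotype and site; numbers are replicates and lines are group means. NFKBIE-wt spleen replicate 4 (105 CPM), NFKBIE-ko spleen replicate 2 (6.21 CPM) and NFKBIE-wt in vitro replicate 3 (2.53 CPM) lie away from the other libraries of their groups.

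By mean level the groups ran from NFKBIE-ko spleen (151 ± 98.8 CPM, SD, n = 4) through NFKBIE-ko in vitro (121 ± 29.6, n = 3), NFKBIE-wt in vitro (72.4 ± 64.2, n = 3), NFKBIE-ko PC (39.6 ± 13.6, n = 4) and NFKBIE-wt spleen (30.3 ± 49.7, n = 4) to NFKBIE-wt PC (22.5 ± 4.28, n = 4). Each group overlapped the next lower group in that order. Without the NFKBIE-wt libraries that went against their labels, NFKBIE-wt in vitro stood at 107 ± 30.4 CPM (n = 2) and no longer overlapped NFKBIE-ko PC, and NFKBIE-wt spleen became the lowest group at 5.51 ± 3.26 CPM (n = 3), below every PC sample. NFKBIE-ko spleen still overlapped NFKBIE-ko in vitro, and the PC groups still overlapped each other.

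The comparison of genotypes within a site asks how loss of NFKBIE goes with expression there. The fitted log2 difference of Ccl22, NFKBIE-ko minus NFKBIE-wt, was 2.33 (SE 1.35) in the spleen. It was 4.76 (SE 1.20) without NFKBIE-wt replicate 4, 2.71 (SE 1.23) without NFKBIE-ko replicate 2 and 5.16 (SE 0.54) without both. Both libraries stand out by their Ccl22 values, so the larger difference and smaller error without them follow from leaving them out and support nothing. In the PC the log2 difference was 0.79 (SE 0.25), a ratio of mean CPM of 1.76. In culture it was 0.74 (SE 1.09), and 0.17 (SE 0.27) without NFKBIE-wt replicate 3. The spleen difference minus the PC difference was 1.50 (SE 1.48) on the log2 scale, and 3.97 (SE 0.99) without the NFKBIE-wt libraries that went against their labels. Both sites were sampled from the same groups of 5 mice, so some mice gave both samples; the labels do not say which, and the fit treats the samples as independent. The direction was the same in all of these fits, while the size in the spleen turned on NFKBIE-wt replicate 4.

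**Figure D2:**
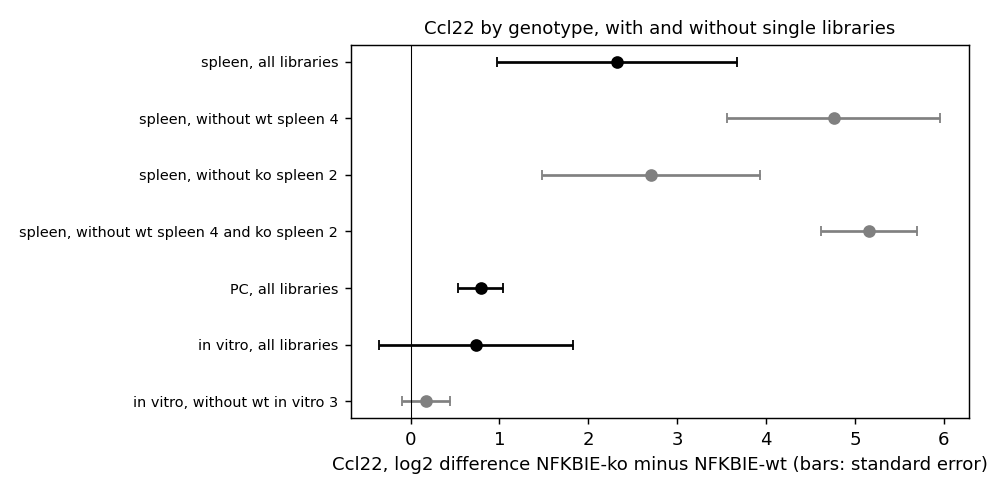
Fitted log2 difference of Ccl22, NFKBIE-ko minus NFKBIE-wt, at each site with all libraries (black) and without the libraries named at the left (grey); bars are standard errors. The spleen value moves from 2.33 to 5.16 when NFKBIE-wt replicate 4 and NFKBIE-ko replicate 2 are left out, and the culture value from 0.74 to 0.17 without NFKBIE-wt replicate 3.

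Against culture of the same genotype, the fitted level of Ccl22 was lower in both PC groups and in the NFKBIE-wt spleen, while the NFKBIE-ko spleens lay on either side of the cultures. The log2 difference, site minus culture, was -1.69 (SE 1.12) for NFKBIE-wt PC and -1.62 (SE 1.12) for NFKBIE-ko PC. It was -1.26 (SE 1.11) for NFKBIE-wt spleen and 0.31 (SE 1.12) for NFKBIE-ko spleen. Without NFKBIE-wt spleen replicate 4 and NFKBIE-wt in vitro replicate 3 the NFKBIE-wt spleen value became -4.29 (SE 0.87) and the NFKBIE-wt PC value -2.23 (SE 0.74). NFKBIE-ko spleen replicate 2 alone was below all NFKBIE-ko cultures, and the other 3 NFKBIE-ko spleens were above them all. Leaving out the same pair of NFKBIE-wt libraries moved the number of transcripts called in NFKBIE-wt spleen against culture from 0 of 43582 (0% of those tested, with 2030 at an unadjusted p under 0.05) to 1712 of 45396 (3.77%).

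Ccl22 was the leading chemokine gene in the cultures. On the TPM scale, which corrects for transcript length, it held 85.3% to 90.1% of the summed level of 29 chemokine genes in the 3 NFKBIE-ko cultures and 68.9% and 88.8% in NFKBIE-wt in vitro replicates 1 and 2, but 3.7% in replicate 3. In the NFKBIE-ko spleens it ranked first in replicates 1, 3 and 4, with 51.3%, 36.2% and 55.3%, and seventh in replicate 2, with 4.08%. The 5 highest chemokine genes of the NFKBIE-ko spleens by mean level were Ccl22 (121 TPM), Ccl5 (61.1 TPM), Ccl3 (20.5 TPM), Cxcl2 (19.9 TPM) and Ccl6 (15.4 TPM). In NFKBIE-wt spleens Ccl22 led at 27.1 TPM through replicate 4, where it held 84.9%, ahead of Ccl6 (10.3 TPM), Ccl5 (8.11 TPM), Cxcl2 (7.47 TPM) and Ccl25 (4.96 TPM). Without replicate 4 it ranked eighth at 4.78 TPM. In the PC, Ccl6 and Ccl9, chemokines of myeloid cells, led both genotypes, and Ccl22 held 0.656% to 2.91% of the summed level.

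**Figure D3:**
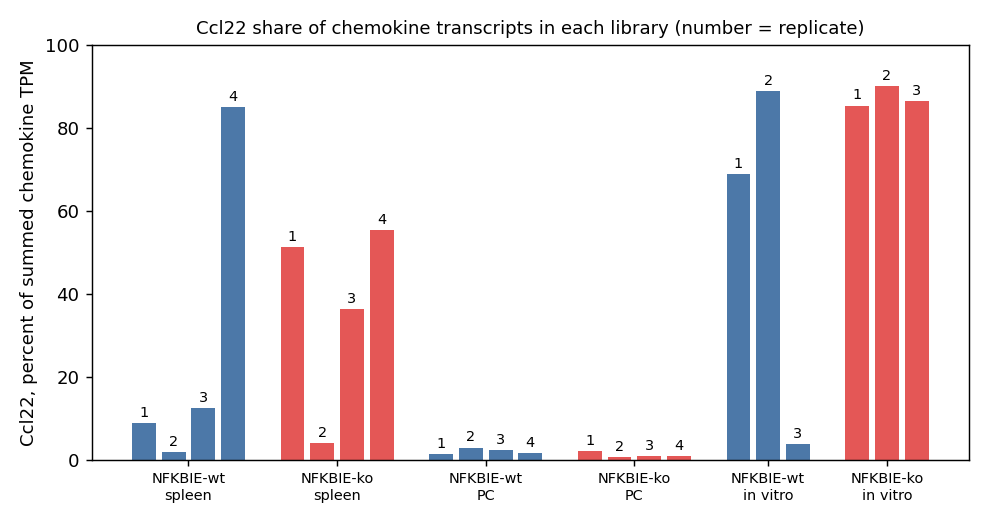
Ccl22 as a percent of the summed TPM of 29 chemokine genes in each library (bars; numbers are replicates). The bars reach 68.9% or more in 5 of the 6 cultures and in NFKBIE-wt spleen replicate 4, lie between 36.2% and 55.3% in 3 NFKBIE-ko spleens, and stay at or under 12.5% elsewhere.

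Ciita was compared with Ccl22 library by library. It stood at 21.6, 15.6, 14.7 and 78.9 CPM in NFKBIE-wt spleens and at 45.6, 36.8, 52.7 and 62.1 CPM in NFKBIE-ko spleens. NFKBIE-wt replicate 4 was again the high library of its group. NFKBIE-ko replicate 2, however, was above NFKBIE-wt replicates 1 to 3 for Ciita, whereas for Ccl22 it lay among them. The Ciita log2 difference in the spleen was 0.60 (SE 0.54, adjusted p = 0.746), and 1.50 (SE 0.23, adjusted p = 0.0408) without NFKBIE-wt replicate 4. That library stands out by its own Ciita value, so the larger difference follows from leaving it out. In the PC Ciita stood at 8.57, 11.3, 8.61 and 8.51 CPM in NFKBIE-wt and at 23.4, 33.0, 18.6 and 20.6 CPM in NFKBIE-ko samples. The PC groups did not overlap, and Ciita rose by 1.33 on the log2 scale (SE 0.19, adjusted p = 0.00367). In culture it stood at 56.7, 114 and 16.0 CPM in NFKBIE-wt and at 185, 170 and 180 CPM in NFKBIE-ko samples (log2 difference 1.50, SE 0.63, adjusted p = 0.863), and without NFKBIE-wt replicate 3 the difference was 1.06 (adjusted p = 0.737). Against culture, Ciita fell in NFKBIE-ko spleen (log2 -1.85, SE 0.53, adjusted p = 0.0444; adjusted p = 0.0832 without NFKBIE-ko spleen replicate 2), in NFKBIE-wt PC (-2.75, SE 0.55, adjusted p = 0.00376) and in NFKBIE-ko PC (-2.90, SE 0.55, adjusted p = 0.00118). In NFKBIE-wt spleen the difference was -0.93 (SE 0.53, adjusted p = 1.0) with all libraries and -2.31 (SE 0.28, adjusted p = 0.000107) without the NFKBIE-wt libraries that went against their labels.

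Over the 22 libraries the correlation of log2(CPM + 1) with Ccl22 was r = 0.68 for Ciita, which ranked 317th of 11326 genes, and r = 0.51 for Nfkbie, which ranked 1241st. On deviations from the 6 group means it was r = 0.80 for Ciita and r = 0.93 for Nfkbie, which then ranked 8th. The deviations of Ccl22 were largest in NFKBIE-wt spleen replicate 4, NFKBIE-ko spleen replicate 2 and NFKBIE-wt in vitro replicate 3, in each of which both genes lay on the same side of their group as Ccl22. Without the NFKBIE-wt libraries that went against their labels, the value on deviations was 0.38 for Ciita and 0.83 for Nfkbie. In the plot of Ccl22 against Nfkbie, the NFKBIE-ko cultures combined high Ccl22 with low Nfkbie.

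**Figure D4:**
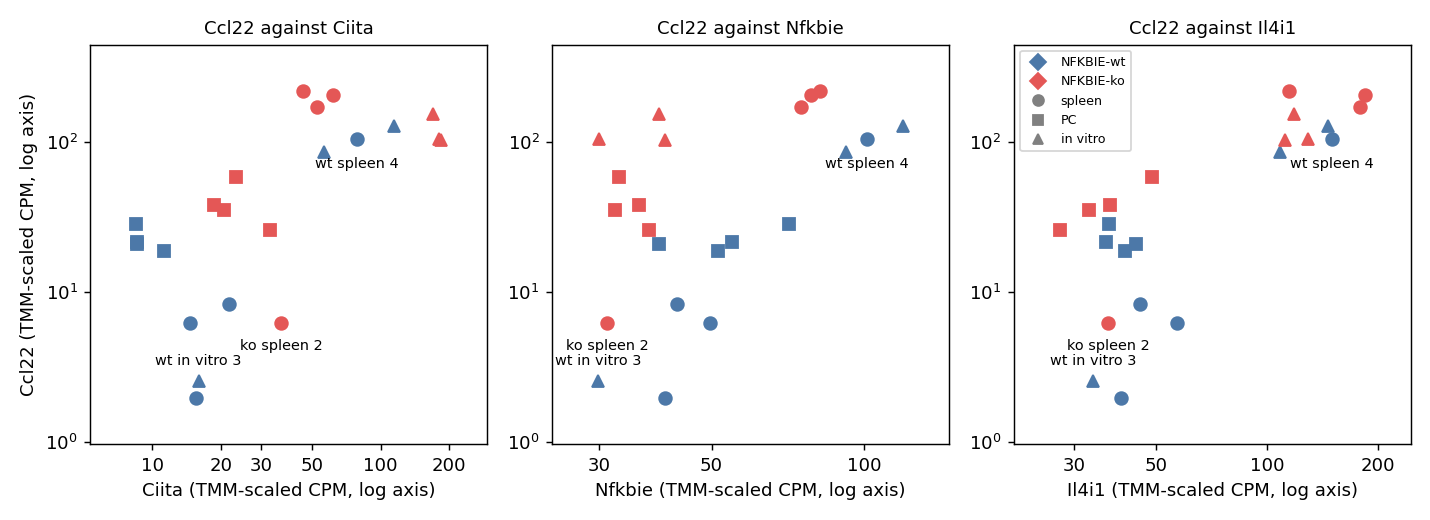
Ccl22 against Ciita, Nfkbie and Il4i1 in the 22 libraries, in TMM-scaled CPM on log axes; colour marks genotype and shape marks site. NFKBIE-ko spleen replicate 2 is low for Ccl22 (6.21 CPM) and Il4i1 (37.2 CPM), as are NFKBIE-wt spleen replicates 1 to 3, but lies to the right of those replicates for Ciita (36.8 CPM). Il4i1 was chosen for its likeness to Ccl22 in these libraries.

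The 8 genes most like Ccl22 over the 22 libraries were Trip10 (r = 0.88), Tulp3 (0.87), Icam1 (0.87), Dtx4 (0.87), Abcc1 (0.87), Tomm70a (0.86), Slc2a6 (0.86) and Lcp1 (0.86). Of these, Icam1 encodes an adhesion molecule and known NF-κB target, and Lcp1 an actin-bundling protein of leukocytes. The 8 most like it on deviations from group means were Il21r (0.96), Nherf2 (0.95), Il4i1 (0.95), Nfkb2 (0.94), Shisa8 (0.93), Serpinc1 (0.93), Tyk2 (0.93) and Nfkbie (0.93). The lists shared 0 genes. Il21r encodes the interleukin 21 receptor, Il4i1 a secreted amino acid oxidase induced by interleukin 4 in B cells, Nfkb2 an NF-κB subunit and Tyk2 a kinase of cytokine receptors. Il4i1 stood at 45.3, 40.3, 57.1 and 149 CPM in NFKBIE-wt spleens and at 115, 37.2, 178 and 184 CPM in NFKBIE-ko spleens, with the same libraries low and high as for Ccl22. Il4i1 was named for its likeness to Ccl22 in these libraries, so this match was bound to appear and supports nothing. The points share libraries and groups, and no p is given. Without the NFKBIE-wt libraries that went against their labels, 6 of the 8 genes most like Ccl22 overall stayed among the first 8, but only 3 did without NFKBIE-ko spleen replicate 2 and 2 when ranked by Spearman's rho.

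Of the CCR4 axis, the ligand Ccl17 and the receptors Ccr4 and Ccr8 were at low levels. Ccl17, the neighbouring gene for the other CCR4 ligand, stood at 1.08, 1.14, 2.10 and 0.301 CPM in NFKBIE-wt spleens and at 2.31, 0.0381, 2.44 and 2.69 CPM in NFKBIE-ko spleens. NFKBIE-ko replicate 2 held 1 estimated count of Ccl17 against 60 to 70 in the other NFKBIE-ko spleens, and so was low for both ligands. Unlike Ccl22, Ccl17 was low in culture, at 0.155 to 1.18 CPM, with its highest value in the library labelled NFKBIE-wt replicate 3. It passed the test in no comparison of genotypes, with adjusted p of 0.853 (spleen), 0.85 (PC) and 0.908 (culture). Ccr4, the receptor, had at most 10 estimated counts in any library and Ccr8, a receptor of related T cells, at most 11; neither passed the filter on low counts. Cx3cr1, the receptor of the third chemokine of the locus and a marker of monocytes, was at 1.18 to 3.09 CPM in NFKBIE-ko and at most 0.204 CPM in NFKBIE-wt spleens (log2 difference 4.05, SE 0.81, adjusted p = 0.0988). Ackr2, a scavenger receptor that removes inflammatory chemokines, was higher in NFKBIE-ko PC, at 4.39 to 7.40 CPM against 0 to 0.671 CPM (log2 difference 4.10, SE 0.85, adjusted p = 0.0165). Dpp4, a membrane peptidase that trims CCL22, fell in NFKBIE-ko PC by 0.91 on the log2 scale (SE 0.10, adjusted p = 0.0012), short of the fold set for a call. In the spleen its log2 difference was 0.93 (SE 0.56, adjusted p = 0.585).

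The Ccl22 gene lies at chr8:95471226-95478327 (GRCm39). Cx3cl1 begins 20.3 kb after its end, Ccl17 56.0 kb and Ciapin1 66.1 kb after it, and Coq9 86.6 kb, while Arl2bp ends 70.1 kb and Rspry1 84.3 kb before it. Cx3cl1, a membrane-bound chemokine, was found in the cultures other than NFKBIE-wt replicate 3, at 0.27 to 2.08 CPM, and in NFKBIE-wt spleen replicate 4 at 0.978 CPM, and was at most 0.0892 CPM in all other libraries. It was near 0 in the 3 NFKBIE-ko spleens with high Ccl22. Arl2bp fell by 0.54 on the log2 scale in NFKBIE-ko PC (SE 0.09, adjusted p = 0.00612). The other neighbours, Ciapin1, Coq9 and Rspry1, had log2 differences of -0.40 to 0.48 between genotypes at the 3 sites, and none passed the test.

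Markers of host cells moved with some of these values. For the 14 macrophage and monocyte genes the summed level was 32.7 to 109 CPM in NFKBIE-wt spleens, 131 to 395 CPM in NFKBIE-ko spleens, 603 to 1831 CPM in NFKBIE-wt PC and 3986 to 6265 CPM in NFKBIE-ko PC. In culture it was 72.4 to 110 CPM in NFKBIE-wt and 78.1 to 106 CPM in NFKBIE-ko libraries. The NFKBIE-ko cultures were within the range of the NFKBIE-wt spleens. The 110 CPM was that of NFKBIE-wt in vitro replicate 3, and the other NFKBIE-wt cultures held at most 73.7 CPM. The 32.7 CPM was that of NFKBIE-wt spleen replicate 4, and the other NFKBIE-wt spleens held 72.0 to 109 CPM. The part of macrophages and monocytes in the Ccl22 differences in vivo was not tested. In the NFKBIE-ko cultures, with 103 to 156 CPM of Ccl22, most of the list's level came from Ly6c2 (33.5 to 48.9 CPM) and Adgre1 (18.6 to 26.4 CPM), while C1qa and C1qc were at 0 CPM, C1qb at most 0.0385 CPM and Lyz2 at most 0.186 CPM. The PC libraries had lower Ccl22 than the NFKBIE-ko cultures, and which cells made it at either site was not tested. The 13 dendritic cell genes summed to 263 to 278 CPM in the NFKBIE-ko cultures. In the NFKBIE-wt cultures the same genes summed to 126 CPM in replicate 3 and to 286 and 362 CPM in the others. Of these genes, Il12b, Clec9a and Cd209a were at 0 CPM in the NFKBIE-ko cultures and Itgax was at most 0.149 CPM there. Others, among them Fscn1, Flt3, Batf3, Xcr1 and Siglech, passed the filter on low counts in the culture fit without NFKBIE-wt replicate 3. Most of the sum in the same cultures came from Socs2 (131 to 155 CPM) and Ccr7 (50.3 to 90.9 CPM), and Zbtb46 was at 7.18 to 7.50 CPM. In the spleen the summed list was 124 to 170 CPM in NFKBIE-ko libraries, and 125 to 426 CPM in NFKBIE-wt libraries, where the highest value was that of replicate 4. The 12 T-cell genes summed to 473 to 902 CPM in NFKBIE-wt and 701 to 870 CPM in NFKBIE-ko spleens, most of it Il7r. The 473 CPM was that of NFKBIE-wt replicate 4, and the other NFKBIE-wt spleens held 814 to 902 CPM. Because Il7r fills the sum, it says little of the other members. In the spleen 6 of the 11 T-cell genes tested had an unadjusted edgeR p under 0.05, beside 11.7% of all transcripts. The median log2 difference of the 11, NFKBIE-ko minus NFKBIE-wt, was 1.53, and 0 were called. The 7 regulatory T-cell genes summed to 48.8 to 77.7 CPM in NFKBIE-wt and 45.6 to 92.0 CPM in NFKBIE-ko spleens. The 48.8 CPM was that of NFKBIE-wt replicate 4, and the other NFKBIE-wt spleens held at least 61.3 CPM. Most of the NFKBIE-ko sum was Il10, at 36.2 CPM in replicate 2 and 52.2 to 77.8 CPM in the others. The sum was 39.7 to 84.4 CPM in NFKBIE-wt and 32.5 to 37.4 CPM in NFKBIE-ko cultures. Foxp3, the defining gene of regulatory T cells, was at 0 CPM in 3 NFKBIE-wt spleens and in NFKBIE-ko spleen replicates 1 and 2, and at most 0.73 CPM in the other spleens.

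Of the genes in the 11 lists, 109 could be tested in the spleen and 2 were called (adjusted p under 0.05 and a log2 difference beyond 1), beside 0.312% of all 33308 transcripts tested. Irf1, an interferon regulatory factor and NF-κB target, rose by 1.46 on the log2 scale (SE 0.18, adjusted p = 0.0234), and Il2ra, the interleukin 2 receptor alpha chain, fell by 2.38 (SE 0.37, adjusted p = 0.0483). NFKBIE-ko replicate 2 was as high as its group for Irf1, at 168 CPM against 154 to 208 CPM. Without NFKBIE-wt replicate 4, 10 listed genes were called (0.734% of all transcripts), and without NFKBIE-ko replicate 2 as well, 15 (1.36%); without NFKBIE-ko replicate 2 alone it was 1, Irf1 (0.248%). In the fit without both the called genes included Icam1 (log2 difference 2.04, SE 0.10, adjusted p = 0.00391), Nfkb2 (1.41, SE 0.12, adjusted p = 0.0126), Il4i1 (1.73, SE 0.23, adjusted p = 0.0321) and Cxcl9 (4.56, SE 0.66, adjusted p = 0.0365). Icam1, Nfkb2 and Il4i1 are among the genes most like Ccl22 in these same libraries. Their larger differences here follow from leaving out libraries that stand out for Ccl22, and support nothing. By list, with all libraries, 1 of 20 NF-κB target genes and 0 of 11 NF-κB subunits and inhibitors, 0 of 13 MHC class II genes and 0 of 11 genes of the IL-4 and STAT6 pathway were called. Their median log2 differences were 1.06, 0.38, 0.30 and 0.28, beside -0.01 over all transcripts. The medians of the host-cell lists were higher for macrophages and monocytes (1.83), T cells (1.53) and dendritic cells (1.22). Those of the regulatory T-cell, CCR4 axis and B-cell identity lists were 0.76, 0.81 and -0.41. None of the 8 cytokine genes that the study chose on these samples was called, although all 8 had an unadjusted p under 0.05 (median log2 difference 2.45), beside 11.7% of all transcripts; that choice makes their direction no independent evidence.

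In the PC, 36 of 106 listed genes were called, beside 6.05% of all 34098 transcripts tested; 32 were higher (4.14% of all transcripts) and 4 lower (1.91%). The MHC class II list had 8 of 13 members higher, Ciita among them. Its largest differences were those of H2-Oa (log2 2.08, SE 0.14, adjusted p = 0.000151), H2-Aa (1.46, SE 0.16, adjusted p = 0.00119) and H2-Eb1 (1.39, SE 0.18, adjusted p = 0.00213), genes for MHC class II chains. The macrophage list had 8 of 14 members higher, led by Lyz2 (2.51, SE 0.33), Adgre1 (2.36, SE 0.29), Itgam (1.98, SE 0.31) and C1qa (1.64, SE 0.45). Of the NF-κB target genes 4 of 20 were higher (Ebi3, Bcl2a1b, Fas and Cd40) and 1, Gadd45b, was lower. The T-cell list had 6 of 11 members higher, with Lck (2.45, SE 0.32) and Cd28 (2.19, SE 0.32) ahead, and Il7r lower by 1.19. The dendritic list had Batf3 (3.78, SE 0.36), Fscn1 (2.01, SE 0.26) and Zbtb46 (1.51, SE 0.22) higher and Socs2 lower. Il2ra fell by 2.31 (SE 0.15, adjusted p = 0.000124), as in the spleen. Of the cytokines named by the study, Cxcl9 (6.80, SE 0.85) and Csf1 (1.16, SE 0.24) were called. No gene of the B-cell identity, NF-κB subunit or IL-4 and STAT6 lists was called. In culture 0 of 90 listed genes were called by edgeR, beside 0% of all 33361 transcripts, with 19 listed genes at an unadjusted p under 0.05 (5.32% of all transcripts). DESeq2 called 4 listed genes there, beside 0.558% of the 40163 transcripts it tested. The difference between the genotype effects in spleen and PC passed the test for 0 of 120 listed genes, beside 0.223% of all transcripts, with 22 at an unadjusted p under 0.05 (10.1% of all transcripts). It passed for 1 without NFKBIE-ko spleen replicate 2 (0.802%) and for 1 without the NFKBIE-wt libraries that went against their labels (0.438%).

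Against culture, 46 of 120 listed genes were called in NFKBIE-ko spleen, beside 4.26% of all 43582 transcripts. MHC class II genes gave 9 of the 9 lower calls (1.96% of all transcripts were lower), with H2-Oa at -2.12 (SE 0.53, adjusted p = 0.0231) and Cd74, the invariant chain, at -1.56 (SE 0.44, adjusted p = 0.0394) on the log2 scale, whereas the Ccl22 difference in the same comparison was 0.31. Without NFKBIE-ko spleen replicate 2, 5 MHC class II genes were lower, and without the NFKBIE-wt libraries that went against their labels 10 of 17 lower calls were MHC class II genes. With all libraries the T-cell and macrophage lists each had 8 members higher. In the PC, 28 listed genes were called in NFKBIE-wt (4.26% of all transcripts) and 45 in NFKBIE-ko (9.18%). Without NFKBIE-ko spleen replicate 2 the counts were 42 in NFKBIE-ko spleen (4.86%), 29 in NFKBIE-wt PC (4.61%) and 46 in NFKBIE-ko PC (9.53%). Without the NFKBIE-wt libraries that went against their labels they were 59 (6.35%), 50 (7.27%) and 48 (10.2%).

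NFKBIE-ko spleen replicate 2 is described last, because the low Ccl22 value of its group rests on it. Against the other 3 NFKBIE-ko spleens, Ccl22 was the gene with the 4th lowest ratio of 11327 genes with a mean of at least 1 CPM, at -4.84 on the log2(CPM + 1) scale, and the lowest of the other 3 held 27.5 times as much. The library lay below all 3 for 41.7% of those genes and above all 3 for 29.9%. It was below them for 14 of 20 NF-κB target genes, 10 of 14 macrophage genes, 9 of 13 dendritic cell genes, 9 of 13 MHC class II genes and 3 of 12 T-cell genes. C1qa stood at 4.31 CPM against 16.0 to 38.1 CPM, Nfkb2 at 111 against 217 to 259 CPM and Icam1 at 62.0 against 114 to 125 CPM. Hbb-bs was also low, at 13.6 against 225 to 380 CPM. Ccl5, a chemokine gene, was within the range of the others at 18.2 CPM. The paper assigned its difference between genotypes in the spleen to the leukemic cells. Cd3e, a T-cell receptor component, was above the others at 5.49 against 3.19 to 4.43 CPM. Of the 12 T-cell genes, 2 were above the other 3 libraries, 7 within their range and 3 below. Those below were Cd3d (1.98 against 2.12 to 6.18 CPM), Lck (34.1 against 44.4 to 51.6 CPM) and Cd6. Cd4, chosen after its values were seen, was at 112 to 157 CPM in all 4 NFKBIE-ko spleens, replicate 2 included, and at 3.68 to 23.7 CPM in NFKBIE-wt spleens.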

How the data were processed

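RNA-seq was done on 22 libraries. Per the paper's methods, the authors quantified transcripts with Salmon 1.8 on GRCm39; the deposited values are estimated counts per transcript, with 69.5% of values not whole. Column totals were 24036763 to 26581304. Of 62492 transcripts, 62147 matched GENCODE vM39. Counts were rounded and tested with edgeR 4.0.16 (R 4.3.3): TMM scaling, filterByExpr, robust quasi-likelihood test, Benjamini-Hochberg adjustment over all transcripts; a call needed an adjusted p under 0.05 and a log2 difference beyond 1. Genotypes were fitted within each site, and sites against culture in a fit of all 22 libraries. A gene is its transcript with the highest mean CPM; of 125 listed genes 124 had one. The fits were tested on simulated data with 200 changed transcripts. DESeq2 1.42.0 was an alternative. Replicates differed beyond counting error (chi-square per degree of freedom 10.8 or more); nothing says that they are more than separate samples, so p-values measure the spread between these samples.

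Ccl22 and the gene lists were chosen with earlier results of these data known. Named genes were Ccl22, Nfkbie and Ciita, the CCR4 axis, protein-coding genes within 100 kb, up to 4 called genes with the largest difference per list, defining marker genes near 0, the 8 genes most like Ccl22 by Pearson's r of log2(CPM + 1) in each ranking, and the 5 highest chemokine genes per spleen genotype; others are marked as chosen after their values were seen. Pllp, in the same window, was not analysed here. TPM was computed from counts and transcript lengths.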

Additional observations from a re-analysis of the deposited data

Results flagged for a closer look

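A library was set apart where its gap to the nearest other library of its group of 4 exceeded Dixon's 95% limit of 0.829, which chance passes in about 1 of 20 groups; Ccl22, Nfkbie, Ciita and the CCR4 axis genes were examined, on the CPM or log2(CPM + 1) scale. Ccl22 was chosen for its spleen values, so its own gaps are a description and no test of it. It was high in NFKBIE-wt spleen replicate 4 (105 CPM) and low in NFKBIE-ko spleen replicate 2 (6.21 CPM, on the log2 scale only). Nfkbie was set apart in the same libraries, at 101 CPM and 31.1 CPM. Ciita was high in NFKBIE-wt spleen replicate 4 (78.9 CPM) and in NFKBIE-wt PC replicate 2 (11.3 CPM). Ccl17 was low in NFKBIE-ko spleen replicate 2 (0.0381 CPM). NFKBIE-wt spleen replicate 4 was also low for Dpp4 (5.49 CPM) and high for Cx3cl1 (0.978 CPM). In the PC, Dpp4 was high in NFKBIE-ko replicate 1 (55.9 CPM) and Cx3cr1 in NFKBIE-wt replicate 4 (1.799 CPM).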

How the results depend on the processing

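The Ccl22 difference between genotypes kept its direction in every fit run. In the spleen it moved beyond 1 SD of replicates to 5.16 without NFKBIE-wt replicate 4 and NFKBIE-ko replicate 2, and it ranged from 1.94 to 4.76 as single libraries were left out (4.76 without NFKBIE-wt replicate 4); the ranges were 0.52 to 0.95 in the PC and 0.17 to 1.45 in culture. The number of listed genes called in the spleen, 2 with all libraries, was 1 without the filter on low counts, 14 with counts summed per gene, 21 with DESeq2, 9 in a fit of all 22 libraries, 15 without both libraries, and 0 to 10 as single libraries were left out: 0 without NFKBIE-wt replicate 1 or 3 or NFKBIE-ko replicate 1, 3 or 4, 1 without NFKBIE-wt replicate 2 or NFKBIE-ko replicate 2, and 10 without NFKBIE-wt replicate 4. In the PC, 36 became 19 in the fit of all 22 libraries, with 24 to 35 as single libraries were left out. In culture, 0 became 4 with DESeq2 and 1 in the fit of all 22 libraries, and stayed 0 as single libraries were left out. Without NFKBIE-wt spleen replicate 4 and NFKBIE-wt in vitro replicate 3, listed genes called against culture went from 0 to 37 in NFKBIE-wt spleen and from 28 to 50 in NFKBIE-wt PC. Without NFKBIE-ko spleen replicate 2 the counts against culture were 42 in NFKBIE-ko spleen, 29 in NFKBIE-wt PC and 46 in NFKBIE-ko PC, from 46, 28 and 45. For the difference between the effects in spleen and PC, 0 became 4 with counts summed per gene, 1 without NFKBIE-ko spleen replicate 2 and 1 without that NFKBIE-wt pair. The likeness of Ciita to Ccl22, 0.68, was 0.71 as Spearman's rho; that of Nfkbie, 0.51, was 0.43 as Spearman's rho, 0.43 without that NFKBIE-wt pair and 0.48 without NFKBIE-ko spleen replicate 2. The cause of these moves was not tested. Leaving out NFKBIE-wt spleen replicate 4, NFKBIE-wt in vitro replicate 3 or NFKBIE-ko spleen replicate 2, and the pairs of them, was chosen in part after seeing the data.

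Replicate numbers did not pair NFKBIE-ko with NFKBIE-wt samples within a site. The deviations of such same-numbered samples correlated at -0.137 to 0.0275 (spleen), -0.0338 to 0.00224 (PC) and 0.000448 to 0.0321 (culture). Whether same-numbered spleen and PC samples of a genotype deviated together was not tested. With the replicate number as a block, listed genes called became 0 in the spleen and 21 in the PC, and the Ccl22 log2 difference was 3.08 (spleen), 0.73 (PC) and 1.55 (culture).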
